A study of Mus musculus with 27 samples.

Results

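This account concerns 7 subunits of the GABA-A receptor in mouse hippocampus: Gabra2, Gabra3, Gabra4, Gabra5, Gabrb1, Gabrg3 and Gabrd. They were chosen by name as a gene family and are 7 of the 31053 genes in the files, which also hold 12 other subunits of the family. The hippocampi of 27 mice were profiled by single-nucleus RNA-seq, with 1 library per mouse. A UMI stands for 1 RNA molecule captured from a nucleus, and unspliced RNA was counted too. The P301S mice carry a transgene for human tau with the P301S mutation under the Prnp promoter. The libraries labelled Cgas+/+ (n = 5), Cgas+/- (n = 2) and Cgas-/- (n = 2) carry no tau transgene, and those labelled P301S Cgas+/+, P301S Cgas+/- and P301S Cgas-/- (n = 6 each) do. Cgas encodes a sensor of cytosolic DNA, and its loss was constitutive rather than limited to 1 cell type. The labels give 11 females and 16 males and no ages, and the Cgas+/- and Cgas-/- mice without tau were all male.

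GABA-A receptors are chloride channels opened by GABA, the main inhibitory transmitter of the brain, and each is a ring of subunits around a pore. The usual receptor combines alpha and beta subunits, which form the GABA binding sites, with a gamma subunit, which anchors it at synapses and contributes to the benzodiazepine site. The delta subunit takes the place of gamma in receptors outside the synapse that respond to ambient GABA, with which alpha 4 pairs in dentate granule cells, whereas alpha 5 is known for extrasynaptic receptors of hippocampal pyramidal cells.

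The files held 241938 barcodes and 46091490 to 79484316 UMIs per library, with a median of 2225 to 8996 UMIs per barcode. After filters, 204852 nuclei remained, 5840 to 12572 per library. Clusters were named from marker lists and are called "like" a cell type. Dentate granule-like, CA1-like and CA3-like nuclei, the neurons that define a hippocampus, were present, but cortical-like nuclei made up 32429 of the 78307 excitatory neuron-like nuclei. The 5 clusters that stayed unnamed held 9.07% of the nuclei. In 2 libraries that stood apart, 53.1% of the nuclei of P301S Cgas+/+ replicate 3 and 29.6% of those of P301S Cgas+/- replicate 1 were in unnamed clusters. Pairs of libraries shared 3 to 38 cell barcodes. Cgas itself, listed as Mb21d1, did not follow the labels: in microglia-like nuclei it was at 51.1 ± 6.84 CPM (SD, n = 6) in the P301S Cgas-/- group and 38.4 ± 12.02 CPM (n = 6) in the P301S Cgas+/+ group. CPM are UMI counts scaled by the total UMIs of the class. Without tau it was at 27.3 ± 8.14 CPM (n = 2) in libraries labelled Cgas-/- and at 34.7 ± 2.33 CPM (n = 5) in those labelled Cgas+/+. The sources used here do not give the position of the deletion, and 3′ counts that lie outside it check nothing about the labels. Every direction between groups below therefore rests on the labels.

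The 7 genes lie on 4 chromosomes (GRCm38, GENCODE vM21). Gabra2 (ENSMUSG00000000560, chromosome 5, 70957597 to 71095849, minus strand), Gabra4 (ENSMUSG00000029211, chromosome 5, 71569749 to 71658308, minus strand) and Gabrb1 (ENSMUSG00000029212, chromosome 5, 71658113 to 72149037, plus strand) form 1 cluster. Gabra5 (ENSMUSG00000055078, chromosome 7, 57407672 to 57510059) and Gabrg3 (ENSMUSG00000055026, chromosome 7, 56716465 to 57387188) are neighbours on the minus strand. Gabra3 (ENSMUSG00000031343) is at 72432681 to 72656848 of chromosome X and Gabrd (ENSMUSG00000029054) at 155384980 to 155398112 of chromosome 4, both on the minus strand. Gabra4 and Gabrb1 overlap head to head on opposite strands. None of the 7 genes overlaps a gene of its own strand that is in the files.

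Promoters of 3 members are shown because Gabra2 gave the 1 call described below and because Gabra4 and Gabrb1, the head-to-head pair, had the most similar levels over cell types of the 21 pairs of members. The windows hold 300 bases around a RefSeq start site on GRCm38.p6, and 6 of the 7 members had one. The motifs were searched on both strands in 32851 promoters of that length. The TATA box, spelled TATAAA, was in 13.6% of these promoters. The cyclic AMP response element, spelled TGACGTCA, was in 1.79%, and the GC box, spelled GGGCGG, was in 35.7%. Capitals mark motif matches, on either strand. Each window is written 5′ to 3′ on the strand of its gene:
Gabra2, chr5:71095800-71096099, minus strand: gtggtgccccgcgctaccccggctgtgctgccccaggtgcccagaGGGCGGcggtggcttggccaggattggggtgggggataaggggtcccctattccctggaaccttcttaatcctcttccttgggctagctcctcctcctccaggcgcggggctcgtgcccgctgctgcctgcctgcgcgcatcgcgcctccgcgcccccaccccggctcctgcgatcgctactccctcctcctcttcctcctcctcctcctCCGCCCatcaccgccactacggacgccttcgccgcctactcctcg
Gabra4, chr5:71658259-71658558, minus strand: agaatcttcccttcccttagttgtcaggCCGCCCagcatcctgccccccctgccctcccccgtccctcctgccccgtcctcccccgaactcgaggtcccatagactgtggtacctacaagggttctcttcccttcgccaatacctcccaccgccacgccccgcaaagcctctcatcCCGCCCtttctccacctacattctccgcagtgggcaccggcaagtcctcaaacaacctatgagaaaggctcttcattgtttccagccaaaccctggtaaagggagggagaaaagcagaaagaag
Gabrb1, chr5:71657671-71657970, plus strand: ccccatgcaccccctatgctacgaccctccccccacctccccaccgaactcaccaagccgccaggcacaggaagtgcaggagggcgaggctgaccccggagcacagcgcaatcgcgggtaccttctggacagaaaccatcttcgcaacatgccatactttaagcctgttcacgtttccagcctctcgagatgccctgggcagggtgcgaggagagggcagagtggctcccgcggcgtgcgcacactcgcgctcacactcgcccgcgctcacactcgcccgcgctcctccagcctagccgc
The Gabra2 and Gabra4 windows each held 2 GC boxes, and the Gabrb1 window held none of the 3 motifs. Gabra2 and Gabrb1 had 25 CpG dinucleotides each and Gabra4 had 12, against a median of 7 over all promoters. The Gabrb1 window shown is the one nearer to the start of Gabra4, and another, at chr5:71699682-71699981, had 9 CpG dinucleotides and none of the 3 motifs. A match describes letters only, since these assays did not measure promoters.

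**Figure D1:**
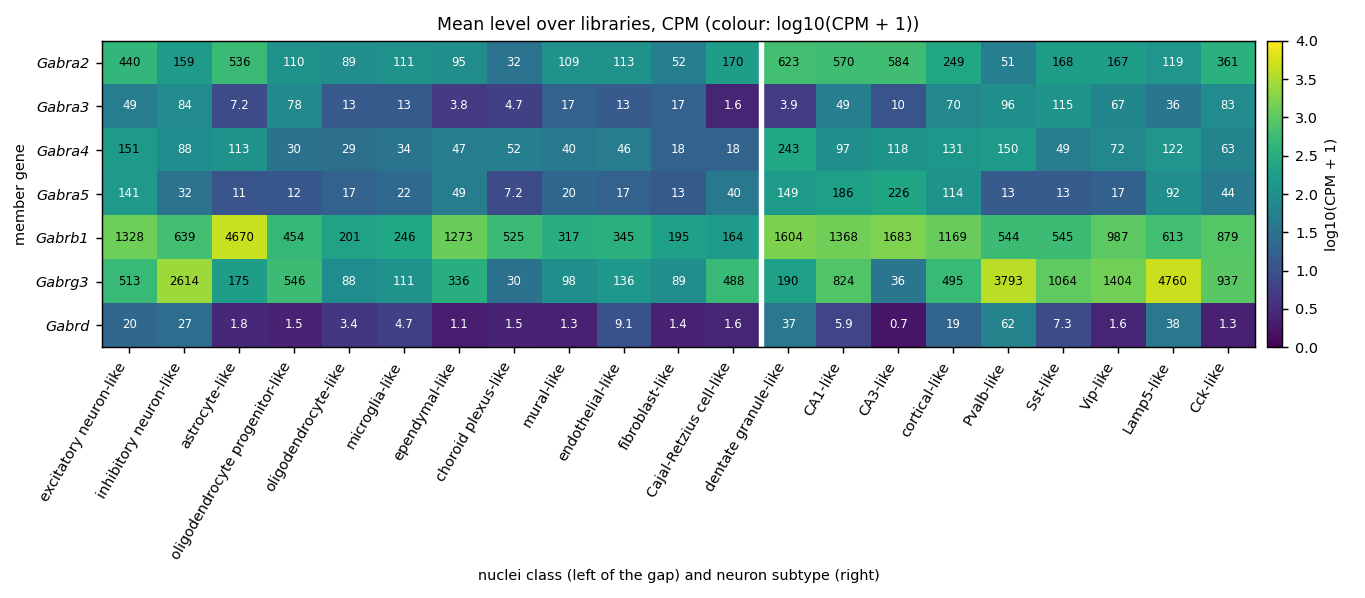
Mean level of the 7 subunits in each class and subtype of nuclei, in CPM on a log scale given by the colour bar (rows, genes, and columns, classes and subtypes). Gabrb1 was highest in astrocyte-like nuclei, Gabrg3 in Lamp5-like and Pvalb-like nuclei, and Gabra5 in CA3-like and CA1-like nuclei.

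The alpha subunits, which set much of a receptor's pharmacology and location, differed in where they were found. Levels below are means over libraries with at least 20 nuclei of the class, with the SD, and are a description with no test. Gabra2, the alpha subunit of many synapses on principal neurons, was at 536 ± 95.3 CPM (n = 27) in astrocyte-like and 440 ± 147 CPM (n = 27) in excitatory neuron-like nuclei. Their bands of mean ± SD overlapped, and 20 of 27 libraries were higher in astrocyte-like nuclei. Among neurons Gabra2 was at 623 ± 111 CPM (n = 26) in dentate granule-like, 584 ± 144 CPM (n = 19) in CA3-like and 570 ± 132 CPM (n = 27) in CA1-like nuclei, which were not separable by their spread. It was at 361 ± 79.0 CPM (n = 25) in Cck-like interneurons and 249 ± 88.9 CPM (n = 27) in cortical-like nuclei. Pvalb-like interneurons had the lowest level of the 9 subtypes, 51.5 ± 19.7 CPM (n = 23), below Lamp5-like nuclei in 23 of 23 libraries.

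Gabra3, an alpha subunit common outside the hippocampal formation, had a different order. It was at 84.3 ± 10.4 CPM (n = 27) in inhibitory neuron-like nuclei and 78.3 ± 13.4 CPM (n = 27) in oligodendrocyte progenitor-like nuclei, and these overlapped. Sst-like interneurons had 115 ± 16.7 CPM (n = 26) and Pvalb-like interneurons 96.2 ± 15.2 CPM (n = 23). The hippocampal neurons were split: CA1-like nuclei had 49.5 ± 24.2 CPM (n = 27), CA3-like nuclei 10.1 ± 7.56 CPM (n = 19) and dentate granule-like nuclei 3.88 ± 1.03 CPM (n = 26). Dentate granule-like nuclei were thus below microglia-like nuclei (12.7 ± 5.28 CPM, n = 27).

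Gabra4, the usual partner of delta in the dentate gyrus, was led by dentate granule-like nuclei. There it ranged from 212 to 275 CPM over 26 libraries, with a median of 248 CPM, and 22 of 22 libraries were above their own Pvalb-like nuclei (150 ± 22.7 CPM, n = 23). Cortical-like nuclei had 131 ± 10.1 CPM (n = 27) and Sst-like interneurons 49.1 CPM on average. Astrocyte-like nuclei also held Gabra4, at 113 ± 13.7 CPM (n = 27).

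Gabra5 was the member most restricted to excitatory neurons. Excitatory neuron-like nuclei, 38.2% of the kept nuclei, held 89.2% of its UMIs. A share of UMIs also reflects depth, and the median was 9048 UMIs in these, 3294 in astrocyte-like and 1910 in oligodendrocyte-like nuclei. The order was CA3-like (226 ± 33.8 CPM, n = 19), CA1-like (186 ± 26.5 CPM, n = 27), dentate granule-like (149 ± 26.2 CPM, n = 26) and cortical-like (114 ± 29.8 CPM, n = 27), with each neighbour in that order overlapping the next. Of the interneurons, Lamp5-like nuclei had 91.7 CPM on average, whereas Vip-like, Sst-like and Pvalb-like nuclei had 16.6, 13.5 and 13.3 CPM.

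Gabrb1, a beta subunit and the only one among the 7, was at 4670 ± 380 CPM (n = 27) in astrocyte-like nuclei and ranged there from 3855 to 5462 CPM. That was above excitatory neuron-like nuclei (1328 ± 184 CPM, n = 27) in 27 of 27 libraries. Ependymal-like nuclei had 1273 ± 225 CPM (n = 7), and overlapped the excitatory level. Among neuronal subtypes CA3-like nuclei (1683 ± 218 CPM, n = 19) and dentate granule-like nuclei (1604 ± 89.1 CPM, n = 26) were not separable, and CA1-like nuclei had 1368 ± 165 CPM (n = 27).

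Gabrg3, a less common gamma subunit, had its highest levels in interneurons. Inhibitory neuron-like nuclei, 5.93% of the kept nuclei, held 32.8% of its UMIs, and excitatory neuron-like nuclei held 46.9%, shares that also reflect the greater depth of neuron-like nuclei. Inhibitory neuron-like nuclei had 2614 ± 347 CPM (n = 27), above oligodendrocyte progenitor-like nuclei (546 ± 75.6 CPM, n = 27) in 27 of 27 libraries. Lamp5-like nuclei ranged from 3148 to 6339 CPM with a median of 4729 CPM, and Pvalb-like nuclei from 2504 to 4428 CPM with a median of 3865 CPM, so these overlapped. The means of both were above those of Vip-like (1404 ± 234 CPM, n = 24) and Sst-like nuclei (1064 ± 189 CPM, n = 26). Cck-like interneurons (937 ± 168 CPM, n = 25) overlapped CA1-like nuclei (824 ± 149 CPM, n = 27) and were higher in 16 of 25 libraries. Pyramidal neurons were split, since CA3-like nuclei had 35.9 ± 16.1 CPM (n = 19), below dentate granule-like nuclei (190 CPM on average) in 19 of 19 libraries.

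Gabrd, the delta subunit, had low counts throughout. Pvalb-like interneurons had 61.6 ± 19.1 CPM (n = 23), Lamp5-like interneurons 38.0 ± 15.5 CPM (n = 27) and dentate granule-like nuclei 37.2 ± 7.75 CPM (n = 26). The last 2 overlapped, with Lamp5-like nuclei higher in 12 of 26 libraries. Cortical-like nuclei had 18.5 ± 8.88 CPM (n = 27), CA1-like nuclei 5.91 CPM on average and CA3-like nuclei 0.692 CPM on average, with values of 0 to 1.95 CPM. Dentate granule-like nuclei, 9.67% of the kept nuclei, held 33.4% of all Gabrd UMIs, a share that also reflects their depth (median 7919 UMIs).

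**Figure D2:**
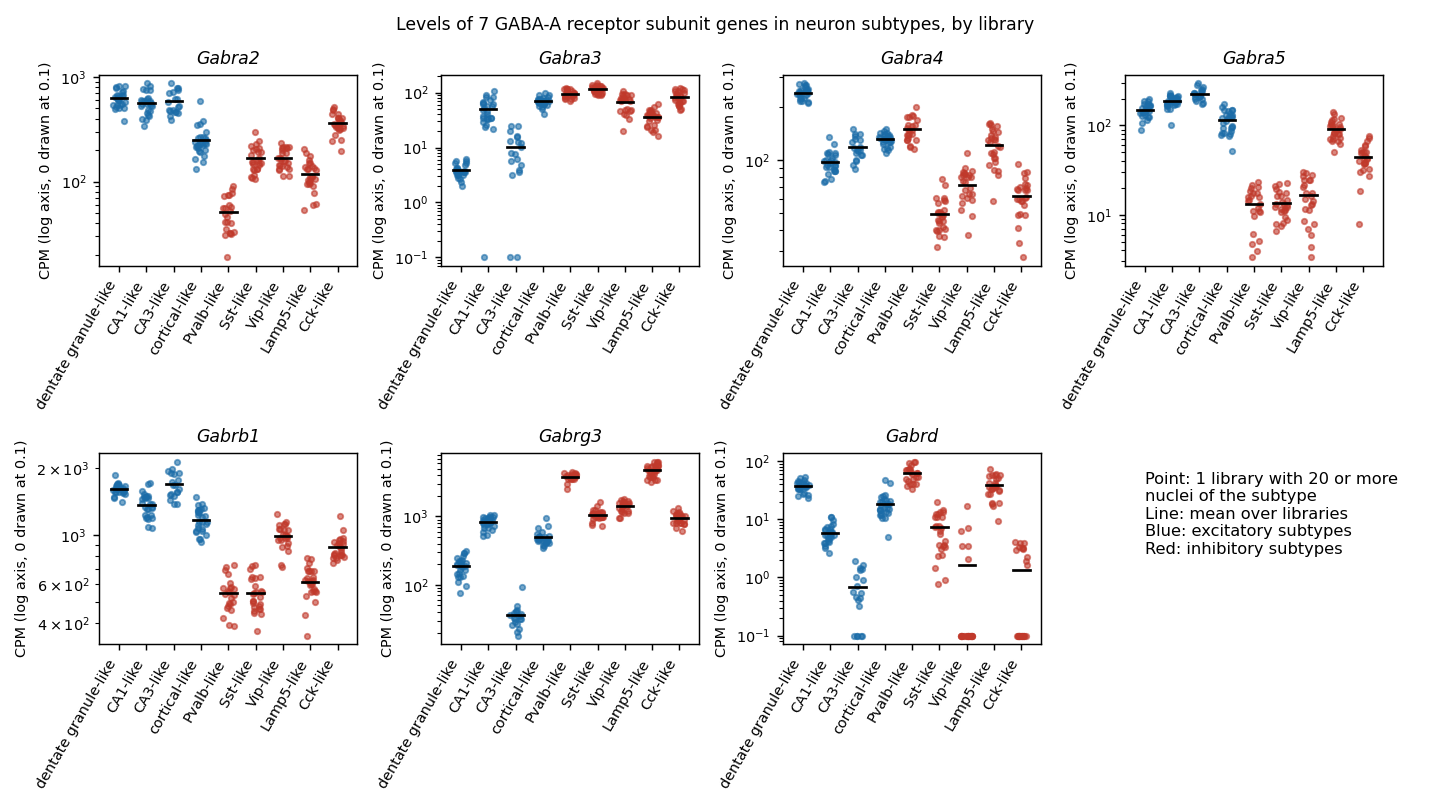
Level of the subunits in neuronal subtypes, in CPM on a log axis (points, libraries with at least 20 nuclei of the subtype, and line, mean over libraries). Gabrg3 was at 4760 CPM in Lamp5-like and 35.9 CPM in CA3-like nuclei, and Gabra4 in dentate granule-like nuclei was above Pvalb-like nuclei in 22 of 22 libraries.

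Levels of different genes were compared only per kilobase of gene, since pre-mRNA was counted. In excitatory neuron-like nuclei the order was Gabra2 (3.18 CPM per kb), Gabrb1 (2.71), Gabra4 (1.71), Gabrd (1.53), Gabra5 (1.37), Gabrg3 (0.765) and Gabra3 (0.219). In inhibitory neuron-like nuclei Gabrg3 led with 3.90 CPM per kb, followed by Gabrd with 2.06 CPM per kb, and in astrocyte-like nuclei Gabrb1 led with 9.51 CPM per kb. Per kilobase of exon instead, the excitatory order began with Gabrb1 (96.0 CPM per kb) and ended with Gabrd (6.99 CPM per kb). Libraries of 3′ ends do not sample a gene evenly, so these orders depend on the length used.

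RNA from other cells was measured in microglia-like, oligodendrocyte-like and endothelial-like nuclei. In microglia-like nuclei the pooled levels of the 7 members were 15.3% to 24.5% of those in excitatory neuron-like nuclei, against 24.7% for Slc17a7, the vesicular glutamate transporter of excitatory neurons, so no member was above this background there. In oligodendrocyte-like nuclei Gabra3 was at 24.0% of its excitatory level and the other 6 members at 11.8% to 18.96%, against 20.9% for Slc17a7. In endothelial-like nuclei Gabrd was at 32.3% and the other 6 at 12.2% to 24.4%, against 27.3% for Slc17a7. That Gabrd value rested on 4 UMIs in 328 nuclei, too few to set it apart from the background. No such share was computed for astrocyte-like nuclei. Against microglia-like nuclei (111 ± 49.2 CPM for Gabra2 and 33.9 ± 10.48 CPM for Gabra4, n = 27), the bands of mean ± SD in astrocyte-like nuclei did not overlap for these genes, whereas for Gabrg3 they did (175 ± 42.4 CPM against 111 ± 46.0 CPM, n = 27). With every nucleus thinned to 2000 UMIs, Gabrb1 was found in 99.6% of the 24947 astrocyte-like nuclei that reached this depth and in 29.3% of 2931 microglia-like nuclei. Without thinning these shares were 99.7% and 30.4%, at median depths of 3294 and 1634 UMIs. For Gabra2 the thinned shares were 56.4% in astrocyte-like, 68.4% in dentate granule-like and 13.3% in microglia-like nuclei. For Gabrg3 they were 23.04% in astrocyte-like and 14.6% in microglia-like nuclei (31.4% and 14.7% without thinning). Gabrd was found in 11.2% of thinned Pvalb-like, 7.50% of thinned dentate granule-like and 0.887% of thinned microglia-like nuclei (36.1%, 24.5% and 0.756% without thinning).

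Over the 21 classes and subtypes, which share libraries and nuclei, levels on the log2(CPM + 1) scale gave a description of which genes had a similar pattern. Of the member pairs, Gabra4 and Gabrb1 were the most alike (Pearson r = 0.78), followed by Gabra2 and Gabra5 (0.70) and Gabra2 and Gabrb1 (0.69), and Gabra3 and Gabra5 were unrelated (-0.02). Among 16125 genes, the closest to Gabra2 were Chst1 (0.89) and Gria2 (0.86), an AMPA receptor subunit, and the closest to Gabra3 were Camk1g (0.91) and Cntn6 (0.90). Gabra4 was closest to Gm15328 (0.85) and Dab1 (0.83), and Gabra5 to Gm2762 (0.91) and Chrm1 (0.91), a muscarinic receptor. Gabrb1 was closest to Sorcs2 (0.88) and Gm40123 (0.85), Gabrg3 to Ank1 (0.93) and Ankrd34b (0.92), and Gabrd to Kcnj4 (0.87), a potassium channel, and Mfsd4a (0.78).

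The 5 comparisons between groups asked whether tau, Cgas or both changed the subunits. The mouse was the unit of replication, so UMIs of each class were added up within a library and tested in 6 classes and 8 neuronal subtypes with edgeR's quasi-likelihood test, with sex as a covariate. Adjusted p-values are Benjamini-Hochberg values over all genes of the class, and a call is an adjusted p under 0.05. Classes contain their subtypes, and all comparisons with P301S Cgas+/+ share those 6 libraries, so the tests are not independent. Fewer cells of a type within a class and less RNA per cell cannot be told apart in these sums.

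P301S Cgas+/+ libraries were set against Cgas+/+ libraries to ask what tau changed. None of the 92 tests of members was called, where 0.0127% of all 149277 gene tests were, and DESeq2 also called 0. At an unadjusted p under 0.05 there were 7 member tests (7.61%), against 4.71% of all gene tests. In dentate granule-like nuclei Gabra5 ranged from 142 to 199 CPM with a median of 162 CPM in P301S Cgas+/+ libraries, and was at 139, 145, 141, 147 and 106 CPM in Cgas+/+ replicates 1 to 5. The groups overlapped, and the log2 fold change was 0.32 ± 0.125 (SE; edgeR adjusted p = 1.0), or 0.20 without P301S Cgas+/+ replicate 6. In the same nuclei Gabra3, near its background there, was at 2.03 to 4.17 CPM with tau and 3.56 to 5.59 CPM without, with a log2 fold change of -0.62 ± 0.243 (edgeR adjusted p = 1.0). Gabra3 in Cck-like interneurons, for which P301S Cgas+/+ replicate 3 was dropped, was at 48.7, 74.4, 87.4, 75.1 and 79.1 CPM with tau, and at 70.1, 94.2, 119.9, 99.1 and 116.5 CPM without, with a log2 fold change of -0.46 ± 0.204 (edgeR adjusted p = 0.998). Gabra3 had a negative fold change in 11 of 14 classes and subtypes and Gabrd in 8 of 9.

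P301S Cgas-/- libraries were set against P301S Cgas+/+ libraries to ask what loss of Cgas changed in the presence of tau. Again 0 of 92 member tests were called, where 0.00201% of gene tests were, and DESeq2 also called 0. At an unadjusted p under 0.05 there were 13 member tests (14.1%), 11 with a negative and 2 with a positive fold change, against 5.69% of all gene tests. Of these 13, 7 were of Gabra2 alone. They were in classes and in subtypes within those classes, and also in microglia-like and oligodendrocyte-like nuclei. Gabra2 in excitatory neuron-like nuclei ranged from 223 to 453 CPM with a median of 333 CPM in P301S Cgas-/- libraries and from 346 to 824 CPM with a median of 499 CPM in P301S Cgas+/+ libraries. The ranges overlapped, with P301S Cgas+/+ replicate 5 far above the others, and the log2 fold change was -0.71 ± 0.204 (edgeR adjusted p = 0.210). Without the libraries that stood apart, which do not include P301S Cgas+/+ replicate 5, it was -0.75 (edgeR adjusted p = 0.180). With 1 mouse left out it ranged from -0.82 to -0.54 (edgeR adjusted p = 0.0604 to 0.480). The fold change of Gabra2 was negative in 14 of 14 classes and subtypes, from -0.80 to -0.12, including microglia-like and oligodendrocyte-like nuclei.

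Within Pvalb-like interneurons 2 members gave the next smallest p-values of that comparison. Over all libraries Gabra2 averaged 51.5 CPM there, below the 111 CPM of microglia-like nuclei, and the part of RNA from other cells was not tested. Gabra2 was at 77.2, 35.2, 45.4 and 52.1 CPM in the 4 P301S Cgas+/+ libraries with enough nuclei and at 18.9 to 40.8 CPM with a median of 31.9 CPM in the 6 P301S Cgas-/- libraries (log2 fold change -0.80 ± 0.259, edgeR adjusted p = 0.939). P301S Cgas+/+ replicates 3 and 4 were dropped from this fit. Gabrd was at 49.7, 61.9, 33.3 and 40.01 CPM in the former and 40.8 to 97.9 CPM with a median of 66.1 CPM in the latter (log2 fold change 0.61 ± 0.221, edgeR adjusted p = 1.0). With nuclei of over 4000 genes kept, the fold changes in Pvalb-like interneurons were -0.35 for Gabra2 and 0.26 for Gabrd (edgeR adjusted p = 1.0 for each). Gabrd had a positive fitted fold change in 9 of 9 classes and subtypes, 0.09 to 0.61, and Gabra5 a negative one in 13 of 13, -0.69 to -0.06. In cortical-like nuclei mean Gabrd ran the other way, at 19.8 CPM in P301S Cgas-/- and 22.1 CPM in P301S Cgas+/+ libraries. No Gabrd or Gabra5 test passed the adjustment.

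**Figure D3:**
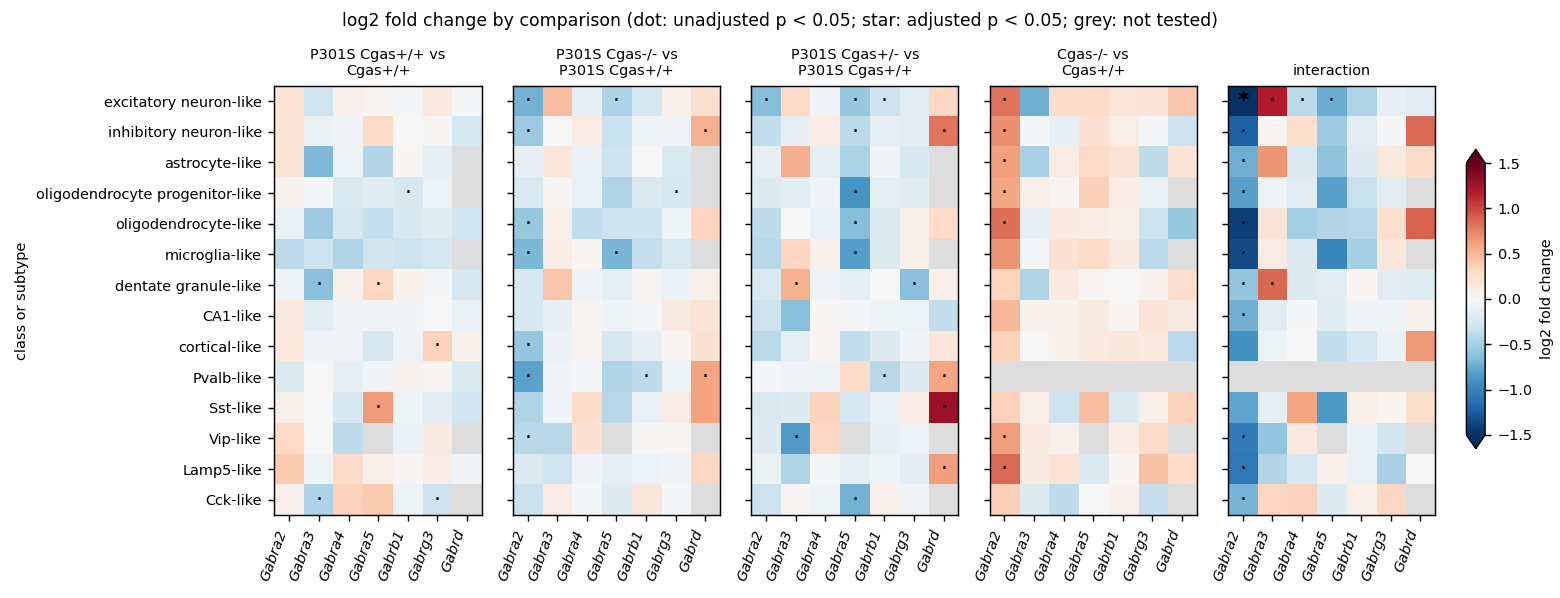
Fitted log2 fold change of each subunit (columns) in each class or subtype (rows) for the 5 comparisons (panels); a dot marks an unadjusted p under 0.05, a star an adjusted p under 0.05, and grey a pair not tested. The 1 star is Gabra2 in excitatory neuron-like nuclei for the interaction, and Gabra2 was below 0 in 14 of 14 rows when P301S Cgas-/- was set against P301S Cgas+/+.

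P301S Cgas+/- libraries, with 1 Cgas copy by the labels, were set against the same P301S Cgas+/+ libraries. None of 92 member tests was called (0.00201% of gene tests were), DESeq2 also called 0, and 16 (17.4%) had an unadjusted p under 0.05, against 5.38% of all gene tests. Gabrd in inhibitory neuron-like nuclei ranged from 23.9 to 49.3 CPM with a median of 37.1 CPM in P301S Cgas+/- libraries and from 9.21 to 35.7 CPM with a median of 21.8 CPM in P301S Cgas+/+ libraries. The highest P301S Cgas+/- value came from replicate 1, 1 of the libraries that stood apart, and the log2 fold change was 0.80 ± 0.235 (edgeR adjusted p = 0.401). Without both libraries that stood apart it was again 0.80 (edgeR adjusted p = 0.509). Over all libraries Gabrd averaged 61.6 CPM in Pvalb-like and 1.34 CPM in Cck-like interneurons, so this sum depends on the mix of interneurons. P301S Cgas+/+ replicates 3 and 4 had under 20 Pvalb-like nuclei, and the part of this mix was not tested. Gabra2 in excitatory neuron-like nuclei was at 245 to 427 CPM with a median of 350 CPM in P301S Cgas+/- libraries, with a log2 fold change of -0.64 ± 0.204 (edgeR adjusted p = 0.226). Gabra3 in Vip-like interneurons was at 20.4 to 73.1 CPM with a median of 45.6 CPM, against 69.0, 91.3, 76.7, 75.9 and 91.4 CPM in 5 P301S Cgas+/+ libraries (log2 fold change -0.85 ± 0.293, edgeR adjusted p = 0.495). Gabra2 again had a negative fitted fold change in 14 of 14 classes and subtypes, from -0.64 to -0.02. Only 1 of these 14 tests had an unadjusted p under 0.05. In Lamp5-like nuclei mean Gabra2 ran the other way, at 119 CPM in P301S Cgas+/- and 117 CPM in P301S Cgas+/+ libraries. Gabra5 had a negative fold change in 12 of 13 classes and subtypes, with a range of -0.89 to 0.28. Of the 16 member tests at that unadjusted p, 6 were of Gabra5 and 4 of Gabrd. Those of Gabra5 included microglia-like and oligodendrocyte-like nuclei.

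The 2 Cgas-/- libraries were set against the 5 Cgas+/+ libraries to ask about loss of Cgas without tau. Of 86 member tests 0 were called (0.0% of gene tests were), DESeq2 also called 0, and 7 had an unadjusted p under 0.05 (8.14%, against 3.46% of all gene tests). All 7 were Gabra2, with a positive fold change. In astrocyte-like nuclei it was at 662 and 676 CPM in the Cgas-/- libraries and 387, 383, 541, 542 and 509 CPM in the Cgas+/+ libraries, which did not overlap (log2 fold change 0.62 ± 0.191, edgeR adjusted p = 1.0). In oligodendrocyte progenitor-like nuclei it was at 139 and 179 CPM, against 98.0, 82.0, 115, 120 and 123 CPM (log2 fold change 0.58 ± 0.190, edgeR adjusted p = 1.0). Over all libraries Gabra2 in these nuclei (110 ± 24.9 CPM) was no higher than in microglia-like nuclei (111 ± 49.2 CPM). The part of RNA from other cells was not tested. In excitatory neuron-like nuclei it was at 742 and 685 CPM, against 468, 420, 345, 399 and 562 CPM (log2 fold change 0.82 ± 0.276, edgeR adjusted p = 0.561). Gabra2 had a positive fold change in 13 of 13 classes and subtypes, 0.34 to 0.85. Both Cgas-/- libraries are male and name Cell Ranger 3.0.2 in their headers, as do Cgas+/+ replicates 1 and 2. Sex was a covariate in these fits. In males only the log2 fold changes in astrocyte-, oligodendrocyte progenitor- and excitatory neuron-like nuclei were 0.67, 0.63 and 0.57, and with the header version as a covariate 0.65, 0.65 and 0.92, with edgeR adjusted p-values of 0.581 to 1.0 over these 6 fits.

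The interaction asked whether the difference between Cgas-/- and Cgas+/+ libraries was itself different with and without tau. It called 1 of 86 member tests, where 0.0494% of all 153982 gene tests and 0.424% of the 17705 genes in excitatory neuron-like nuclei were called. Gabra2 in excitatory neuron-like nuclei averaged 329 ± 76.8 CPM (SD, n = 6) in P301S Cgas-/- and 520 ± 169 CPM (n = 6) in P301S Cgas+/+ libraries, but 714 ± 40.1 CPM (n = 2) in Cgas-/- and 439 ± 81.7 CPM (n = 5) in Cgas+/+ libraries. The interaction was -1.52 ± 0.335 on the log2 scale (edgeR adjusted p = 0.0463; DESeq2 adjusted p = 0.00278). It was negative for Gabra2 in 13 of 13 classes and subtypes, from -1.52 to -0.59. Of the 86 member tests 15 (17.4%) had an unadjusted p under 0.05, 11 of them of Gabra2, against 6.21% of all gene tests. The next smallest p-values were also of Gabra2, in inhibitory neuron-like nuclei (-1.22 ± 0.327, edgeR adjusted p = 0.307, or -0.79 in males alone) and Vip-like interneurons (-1.05 ± 0.308, edgeR adjusted p = 0.591).

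With 1 mouse left out the interaction ranged from -1.73 to -1.34 on the log2 scale. The call lay near its threshold, however, and drew on only 2 Cgas-/- libraries. It was lost with either Cgas-/- library left out (edgeR adjusted p = 0.431 without replicate 1 and 0.190 without replicate 2) and in males alone (-1.07, edgeR adjusted p = 0.607). It was also lost with the Cell Ranger version of the header as a covariate (-1.64, edgeR adjusted p = 0.0551) and with no filter on low counts (-1.52, edgeR adjusted p = 0.0669). It further missed the threshold, with edgeR adjusted p-values of 0.0546 to 0.0941, when any 1 of Cgas+/+ replicates 3 and 4, P301S Cgas+/+ replicates 2, 3, 4 and 5 and P301S Cgas-/- replicates 2, 3, 5 and 6 was left out. The same held without both libraries that stood apart, at almost the same size (-1.56, edgeR adjusted p = 0.0579).

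**Figure D4:**
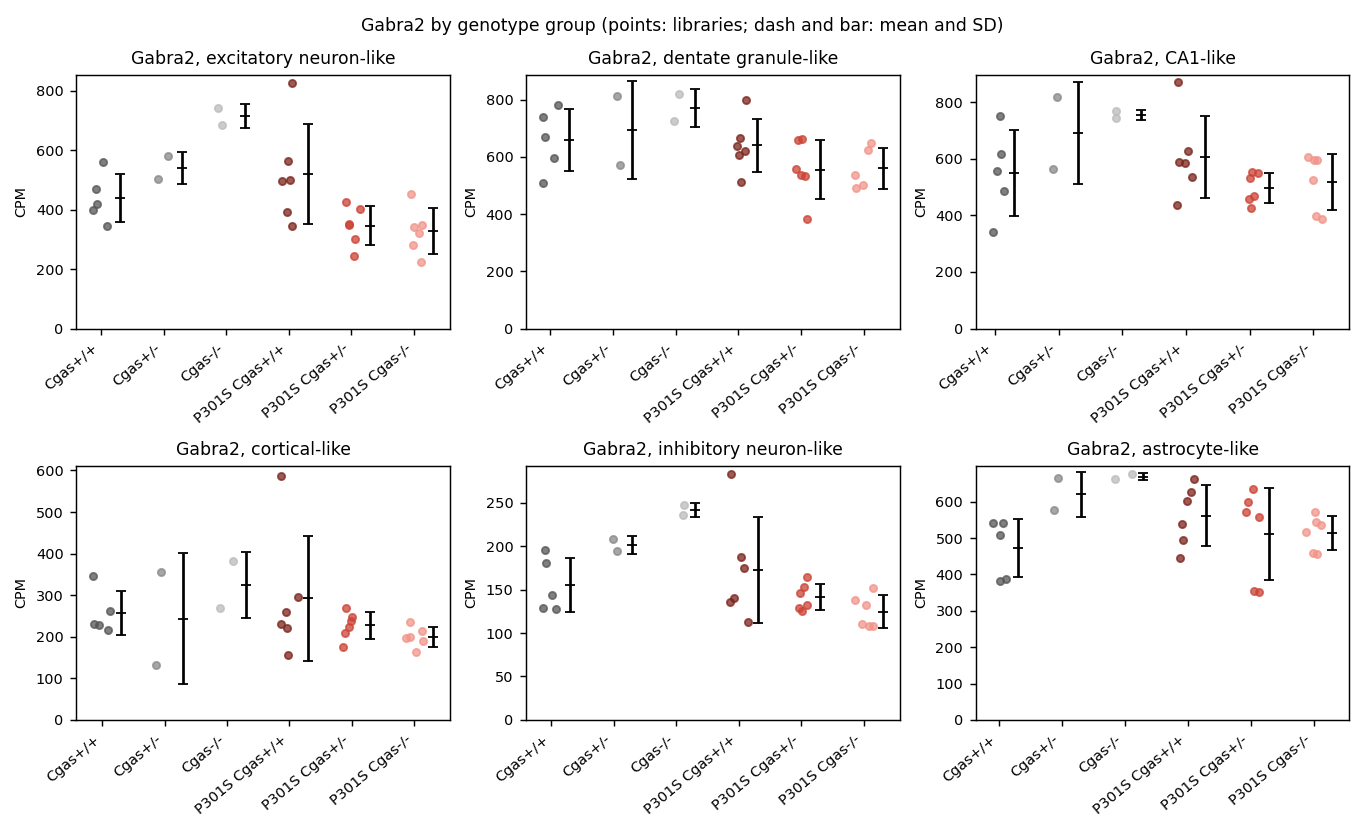
Gabra2 in 6 classes or subtypes, in CPM, by genotype group (points, libraries; dash and bar, mean and SD). In excitatory neuron-like nuclei the 2 Cgas-/- libraries were at 742 and 685 CPM, above all 5 Cgas+/+ libraries, whereas the 6 P301S Cgas-/- libraries were at 223 to 453 CPM.

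The makeup of the excitatory neuron-like class also differed between libraries. Cortical-like nuclei, in which Gabra2 was at 249 CPM against 570 to 623 CPM in the hippocampal subtypes, made up 3.46% and 10.3% of this class in the 2 Cgas-/- libraries. Their share was 42.8 ± 18.8% (SD, n = 5) in Cgas+/+ libraries. With tau it was 29.5 ± 28.4% (n = 6) in P301S Cgas+/+ libraries. The P301S Cgas+/- group had 51.8 ± 8.74% (n = 6) and the P301S Cgas-/- group 51.0 ± 14.4% (n = 6). Shares were tested for the tau, deletion and heterozygous comparisons, and not for Cgas-/- against Cgas+/+ libraries or for the interaction. None of these 12 tests passed. By exact two-sided permutation tests the smallest p-values were 0.0346 for CA1-like nuclei in P301S Cgas+/- and 0.0368 for CA3-like nuclei in P301S Cgas-/- libraries. Each was against P301S Cgas+/+, and both were 0.221 after adjustment over the 12. Within subtypes the Gabra2 interaction was -0.59 ± 0.221 in dentate granule-like, -0.72 ± 0.305 in CA1-like and -0.91 ± 0.455 in cortical-like nuclei, with edgeR adjusted p-values of 1.0, 1.0 and 0.975. P301S Cgas-/- replicate 2 was dropped from the dentate granule-like fit. The part of this makeup in the Gabra2 result was not tested. The interaction was also negative in oligodendrocyte-like (-1.40 ± 0.439, edgeR adjusted p = 1.0) and microglia-like nuclei (-1.34 ± 0.439, edgeR adjusted p = 1.0), where Gabra2 was at the level of RNA from other cells, and the part of that RNA was not tested.

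**Figure D5:**
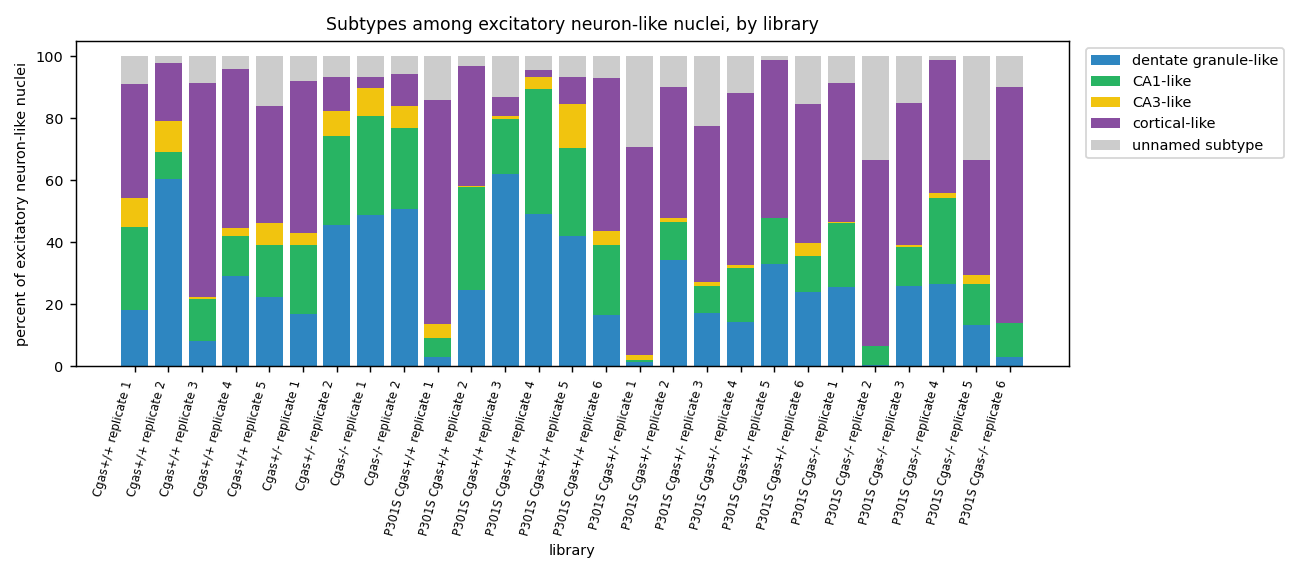
Share of dentate granule-like, CA1-like, CA3-like, cortical-like and unnamed nuclei among the excitatory neuron-like nuclei of each library, in percent (bars, libraries by group). Cortical-like nuclei were 3.46% and 10.3% in the 2 Cgas-/- libraries and 51.0% on average in the P301S Cgas-/- libraries.

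The rest of the pathway gave no call in any of the 5 comparisons. Of the 12 other GABA-A subunits, 6 passed the filter on low counts in the 3 comparisons with tau, and 0 of their 69 tests were called, with 3, 8 and 10 at an unadjusted p under 0.05 for the tau, deletion and heterozygous comparisons. The 13 genes of the inhibitory postsynapse and of receptor trafficking gave 0 calls of 167 tests and 8, 12 and 6 at an unadjusted p under 0.05. For GABA synthesis, release, uptake and breakdown (7 of 8 genes tested, 86 tests) these were 0 calls and 4, 5 and 6, and for the 2 chloride transporters (28 tests) 0 calls and 3, 0 and 2. The 5 GABA-B receptor genes (63 tests) gave 0 calls and 5, 9 and 4. Over all genes the shares at that unadjusted p were 4.71%, 5.69% and 5.38%. In the tau-free comparison the 5 lists, in the same order, gave 0 calls and 1 of 70, 8 of 162, 6 of 85, 1 of 26 and 2 of 62 tests at an unadjusted p under 0.05, against 3.46% of all gene tests. For the interaction they gave 0 calls and 9 of 70 (12.9%), 18 of 162 (11.1%), 7 of 85 (8.24%), 2 of 26 (7.69%) and 5 of 62 (8.06%), against 6.21% of all gene tests. The smallest edgeR adjusted p of the interaction in these lists was 0.0566, in the list of the inhibitory postsynapse.

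Median log2 fold changes over the member tests were -0.05, -0.08 and -0.13 for the tau, deletion and heterozygous comparisons, 0.13 for the tau-free comparison of Cgas-/- with Cgas+/+ libraries and -0.16 for the interaction. The medians over all genes of a class or subtype lay between -0.019 and 0.0075 for tau, -0.0034 and 0.018 for the deletion, -0.0025 and 0.022 for the heterozygous comparison, -0.048 and 0.0045 for the tau-free comparison and -0.0087 and 0.083 for the interaction.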

How the data were processed

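Nuclei of frozen hippocampi were profiled with 10x Chromium 3′ v3 libraries. The files the authors deposited hold raw UMI counts per gene and barcode, which they made by aligning to mm10 and counting pre-mRNA reads. The submitters' processing notes name Cell Ranger 3.1.0 and Seurat 3.0, but 12 of the 27 file headers name Cell Ranger 3.0.2. The annotation release is not given in the sources used here. The libraries held 46091490 to 79484316 UMIs, and intervals were not needed because levels are given with the SD over libraries.

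Groups came from the genotype labels. The labels give 1 library per mouse, and replicates were numbered in accession order. The study's filter was applied (200 to 4000 genes and no more than 5% mitochondrial UMIs per nucleus). Doublets were scored per library with a re-implementation of Scrublet's scheme, and 0.8% per 1000 barcodes were removed (16429). Counts were log-normalized, and 2000 variable genes without the 19 GABA-A subunit genes, 30 components and 15 neighbours gave Leiden clusters (scanpy 1.11.5, resolution 1). To be named, a cluster needed 3 markers, each detected in 10% of its nuclei or more and with a log2 fold above 0.5, and a competing class at 75% or more of the best score left a cluster unnamed. This score was revised once after cluster names, markers and leading genes were seen, and before any comparison between groups. Subtype markers were applied to subclusters in the same way, and 8805 of 78307 excitatory and 2429 of 12142 inhibitory neuron-like nuclei stayed without a subtype.

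UMI counts were summed per library and class (at least 20 nuclei) and tested with edgeR 4.0.16 (R 4.3.3, TMM, filterByExpr, robust quasi-likelihood fit, sex as covariate), with Benjamini-Hochberg adjustment over the genes of a class. The 3 comparisons with tau used 23 mice, and all 27 entered the others. Classes with under 4 mice in a P301S or Cgas+/+ group were not fitted. The fits of the 3 comparisons with tau were run on simulated data for excitatory neuron-like and Lamp5-like nuclei. The fits of the tau-free comparison and the interaction were not. The alternatives included DESeq2 1.42.0. Shares used exact two-sided permutation tests over mice.

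The 7 members, the pathway lists, the marker lists and the tests were chosen with earlier results of these data known. All members are named, and fold changes are given for the 3 member tests with the smallest p in each comparison and for any call. For the likeness of patterns, genes had to reach 5 CPM in 1 class or subtype. Results on some other genes are not reported here. Fold changes of other members in a class were described where they bear on a named one.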

Additional observations from a re-analysis of the deposited data

Results flagged for a closer look

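Of 90 groups of 4 to 6 libraries in which the highest and lowest member levels were examined for a library far from the rest, 3 held one, and chance gives about 1 in 20. Gabra2 in Pvalb-like interneurons of Cgas+/+ replicate 5 was at 72.4 CPM, where the other 3 libraries were at 55.9 to 56.6 CPM. Gabra5 in dentate granule-like nuclei of Cgas+/+ replicate 5 was at 105.9 CPM, where the other 4 were at 138.5 to 147.2 CPM. Gabrg3 in Lamp5-like interneurons of Cgas+/+ replicate 2 was at 6339 CPM, where the other 4 were at 3806 to 4385 CPM.

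The effect of Cgas deletion on Gabra2 in excitatory neuron-like nuclei differed with and without tau by -1.52 on the log2 scale, by the interaction test (edgeR adjusted p = 0.0463). This difference ranged from -1.73 to -1.34 with 1 mouse left out. The call was lost in 12 of 21 fits with 1 mouse left out. Cortical-like nuclei made up 6.90% of this class in Cgas-/- and 51.0% in P301S Cgas-/- libraries on average, and the part of this in the result was not tested.

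In unnamed cluster 27, which no comparison uses, Gabrd was at 153.6 CPM over 989 nuclei, above the 97.9 CPM of the highest single library in any named class or subtype. The same cluster held Gabra6, another alpha subunit, at 410.6 CPM, and P301S Cgas+/+ replicate 2 gave 63.4% of its nuclei. Only 6 libraries had 20 or more nuclei of this cluster. Its leading genes included Chn2, Fat2, Gabra6, Pld5 and Unc13c. Whether these nuclei come from the hippocampus was not tested, so the Gabrd level is not given as that of a hippocampal cell type.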

How the results depend on the processing

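None of the 15 fold changes of members that were recomputed reversed its direction in any alternative run, and the Gabra2 interaction stayed negative in dentate granule-, CA1-, cortical-, oligodendrocyte- and microglia-like nuclei wherever it was recomputed. The level of each member in its highest class and its highest subtype moved by less than 1 SD when doublets or nuclei with over 4000 genes were kept or the 5 Cgas+/+ mice were used alone. Other levels were not part of this comparison, and Gabrg3 in Cck-like interneurons, at 937 ± 168 CPM over 25 libraries, was at 1112 CPM in the 5 Cgas+/+ mice, a move of more than 1 SD. The counts of called member tests were 0 in the tau, heterozygous and tau-free comparisons under all alternatives run. For the deletion comparison 1 was called without the filter on low counts (Gabra2 in Sst-like interneurons) and 0 otherwise.

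For the interaction 0 were called with the header's Cell Ranger version as a covariate, with P301S Cgas+/+ replicate 3 and P301S Cgas+/- replicate 1 left out, and in males only. With 1 mouse left out the count ranged from 0 to 1, and was 0 in 12 of 21 cases: without Cgas+/+ replicate 3 or 4, either Cgas-/- library, P301S Cgas+/+ replicate 2, 3, 4 or 5, or P301S Cgas-/- replicate 2, 3, 5 or 6. Without the filter on low counts the test called was Gabra2 in microglia-like nuclei (-1.41, edgeR adjusted p = 0.00185), and Gabra2 in excitatory neuron-like nuclei had an edgeR adjusted p of 0.0669. That value was 0.0551 with the header version as covariate (-1.64), 0.0454 with DESeq2 size factors, and 0.0172 to 0.431 with 1 mouse left out (-1.73 to -1.34). Where a Cgas-/- mouse was left out, the other was assumed to vary like the other groups.

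The share of CA1-like nuclei in P301S Cgas+/- libraries differed from P301S Cgas+/+ by -17.4 to -10.6 percentage points with 1 mouse left out, and passed without P301S Cgas+/+ replicate 1 (-17.4, exact permutation adjusted p = 0.0260). The share of CA3-like nuclei in P301S Cgas-/- libraries differed from P301S Cgas+/+ by -3.84 points, by -4.74 to -1.95 with 1 mouse left out (the latter without P301S Cgas+/+ replicate 5) and by -5.87 when nuclei with over 4000 genes were kept, and passed in none of these (exact permutation adjusted p = 0.104 to 0.377). For tau, which passed no test of shares, the difference of CA3-like nuclei turned to 0.636 points when nuclei with over 4000 genes were kept, and that of dentate granule-like nuclei ranged from -0.598 to 13.4 points with 1 mouse left out.

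The header version, the 2 libraries and each P301S mouse left out of the interaction were alternatives chosen after seeing the data. No paired analysis was possible because the labels give no shared replicate numbers. Depth limits Gabrd most, which averaged 61.6 CPM in its highest subtype.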

Other observations

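Some other subunits of the family give the setting for these levels, as means over libraries with no error computed. Gabrg1, a gamma subunit, averaged 105.6 CPM in astrocyte-like, 35.0 CPM in oligodendrocyte progenitor-like and 4.404 CPM in excitatory neuron-like nuclei. Gabrr2, a rho subunit, averaged 59.4 CPM in oligodendrocyte-like and 4.65 CPM in astrocyte-like nuclei. Gabrb2, a beta subunit, averaged 1075 CPM in Lamp5-like and 179 CPM in CA3-like nuclei.

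Unnamed clusters also held members. Gabrg3 was at 2384 CPM in cluster 22 (2626 nuclei, at least 20 in each of 27 libraries) and at 2153 CPM in cluster 14 (4134 nuclei, 48.9% of them from P301S Cgas+/- replicate 1). Gabra5 was at 193 CPM in cluster 30 (779 nuclei).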
